A study of Mus musculus with 18 samples.

Results

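Lamp5 neurogliaform-type interneurons were studied as 523 nuclei out of 138000 nuclei kept from the hippocampus (Hip) and the prefrontal cortex (PFC) of 9 mice. The nuclei were chosen by raw counts of unique molecular identifiers (UMIs, 1 per captured transcript). A member had at least 2 UMIs of Gad1 and Gad2 together, no more than 1 UMI of Slc17a7, at least 2 UMIs of Lamp5, and more UMIs of Lamp5 than of Pvalb, Sst or Vip. Of the members, 245 came from 71398 Hip nuclei and 278 from 66602 PFC nuclei, and they made up part of 11314 nuclei with the same GABAergic counts. Single-nucleus RNA sequencing by droplets was done on frozen tissue of Kun Ming mice, an outbred stock, harvested at 8 weeks of age. The 3 groups had 3 mice each, with both regions taken from every mouse. GF mice (numbers 5, 6 and 7) were germ-free and had no gut microbiota. SPF mice (30, 31 and 32) were specific pathogen-free and were raised apart from the isolators. CGF mice (17, 18 and 19) were GF mice co-housed with SPF mice inside a gnotobiotic isolator from juvenile age until harvest. The sex of the mice was not taken from the labels, and no Cre line, transgene or sort was used.

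Gad1 and Gad2 encode the enzymes that make the inhibitory transmitter GABA, and Slc17a7 encodes the vesicular glutamate transporter of excitatory neurons. Interneurons that carry Lamp5 include neurogliaform cells, whose dense axons release GABA as a cloud that acts slowly on GABA-A and GABA-B receptors, often together with neuropeptide Y (Npy) or nitric oxide made by Nos1. Most cortical neurogliaform cells arise from the caudal ganglionic eminence of the embryo and carry Adarb2, whereas the hippocampus also holds many neurogliaform and ivy cells from the medial ganglionic eminence, which carry Lhx6.

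Between 12 and 46 members were found in each Hip library and between 13 and 63 in each PFC library. In the Hip there were 42, 46 and 41 members in the GF mice, 28, 16 and 12 in the SPF mice, and 21, 24 and 15 in the CGF mice. In the PFC there were 35, 56 and 63 members in the GF mice, 21, 13 and 20 in the SPF mice, and 33, 18 and 19 in the CGF mice. The members' summed counts ranged from 106627 to 375754 UMIs per library in the Hip and from 48017 to 567990 UMIs in the PFC. The PFC libraries of GF mice stood apart, since their nuclei had a median of 6795.5 to 7426.5 UMIs, against 2353 to 3208 UMIs in the PFC libraries of SPF and CGF mice and 4678 to 7579 UMIs in the Hip. Any pair of libraries shared 6 to 29 cell barcodes, at most 0.367% of the smaller library. A score against simulated doublets marked 0 to 21.1% of the members of a library. Because nuclei were summed, fewer nuclei with a transcript and less of it per nucleus cannot be told apart in the sums.

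The genes used by the rule are given as a description only. Lamp5 itself had 2 UMIs in 289 members, 3 UMIs in 129 and 4 or more in 105. Just outside the rule lay 669 nuclei with 1 Lamp5 UMI, 328 with 1 UMI of Gad1 and Gad2, 92 with 2 UMIs of Slc17a7 and 41 in which another class marker was as high as Lamp5 or higher. In the Hip, Lamp5 ranged from 244 to 396 CPM (counts scaled to a common library total by the TMM method) over the 9 libraries with a median of 291 CPM, and in the PFC from 382 to 873 CPM with a median of 508 CPM. Gad1 had a median of 476 CPM in the Hip and 557 CPM in the PFC, and Gad2 of 769 and 519 CPM. The label of the nuclei was checked on genes that the rule did not use, against nuclei chosen in the same way for Pvalb (339 nuclei), Sst (1532) and Vip (553).

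In the Hip, Lamp5 nuclei were set apart by a group of neurogliaform genes. Of 24 genes on a neurogliaform list, 14 were abundant enough to test and 7 were higher in Lamp5 nuclei than in each of the 3 other classes, with a median log2 difference of 2.08 over the list against 0.01 over all genes. Over all 7029 genes tested, 297 were called (4.23%), 203 higher and 94 lower, by the quasi-likelihood test of edgeR with an adjusted p under 0.05 against every other class. Ndnf, a secreted neuron-derived factor used to mark neurogliaform cells, ranged from 81.4 to 177 CPM with a median of 125 CPM in Lamp5 nuclei. Its median was 14.1 CPM in Sst nuclei and 0 CPM in Pvalb and Vip nuclei, and no library of those classes exceeded 36.5 CPM. Ndnf was thus higher in Lamp5 nuclei without overlap, and its smallest log2 difference was 3.15 ± 0.24 (SE) against Sst nuclei (edgeR, adjusted p = 5.06e-14).

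Hapln1, which links hyaluronan and proteoglycans of the matrix around neurons, had 118, 192 and 426 CPM as its lowest, median and highest value in Hip Lamp5 nuclei. It did not exceed 35.7 CPM in any library of the other classes, and its smallest log2 difference was 3.85. Sv2c, a protein of synaptic vesicles, had 110, 186 and 249 CPM against medians of 0, 18.1 and 0 CPM in Pvalb, Sst and Vip nuclei. Reln encodes the secreted glycoprotein reelin. Its values of 860, 1212 and 2266 CPM overlapped with those of Sst nuclei, which reached 1039 CPM, and it was 0.91 ± 0.23 (SE) higher on the log2 scale (edgeR, adjusted p = 0.00374). Kit, a receptor tyrosine kinase, had 64.3, 194 and 283 CPM and overlapped with Vip nuclei, whose median was 82.3 CPM. Id2 and Rxfp1 were the other 2 list members that were higher in Lamp5 nuclei. The call of Reln was lost with DESeq2 (adjusted p = 0.294), that of Id2 without GF mouse 7 (edgeR, adjusted p = 0.07), and that of Rxfp1 with DESeq2 and without CGF mouse 17, GF mouse 5, GF mouse 6 or SPF mouse 32 (adjusted p = 0.0584 to 0.171). With the rule applied after thinning each nucleus to 2000 UMIs, 8 of 1792 genes were called in the Hip, 2 higher and 6 lower and 2 of them shared, and none of the 11 genes named for the Hip that could still be tested passed (Hapln1, Sv2c, Reln, Kit, Myo3b, Cacna2d1, Dchs2, Nfib, Kcnc2, Npas3 and Satb1; edgeR, adjusted p = 0.186 to 0.8).

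Outside the neurogliaform list, the largest differences in the Hip were seen for Cacna2d1, Myo3b, Tacr1, Vcan and Dchs2. Vcan is also a marker of oligodendrocyte precursor cells, and the part of such cells in its level was not tested. Cacna2d1, the auxiliary calcium channel subunit that binds gabapentin, had 1384, 2239 and 3722 CPM in Lamp5 nuclei. In the other classes it stayed at or below 407 CPM in each library. Tacr1, the receptor of substance P, ranged from 9.66 to 189 CPM with a median of 58.6 CPM, and its lowest libraries overlapped with the highest of Pvalb and Sst nuclei. Lower genes of the lists were Kcnc2, a channel subunit of fast-spiking neurons, Npas3 and Satb1. With the stricter rule of at least 3 UMIs these 3 calls were lost (edgeR, adjusted p = 0.0588, 0.0706 and 0.118). Satb1, a chromatin organizer needed by interneurons of the medial eminence, had 14.3, 22.5 and 54.1 CPM in Lamp5 nuclei against a median of 304 CPM in Sst nuclei and 357 CPM in Pvalb nuclei. 

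In the PFC the same kind of genes marked the Lamp5 nuclei, and Npy was added to them. Of 15 neurogliaform genes tested, 9 were higher than in each other class and none lower, with a median log2 difference of 2.01 against -0.04 over all genes. Of 7929 genes tested, 355 were called (4.48%), 247 higher and 108 lower. Sv2c had 163, 287 and 457 CPM in Lamp5 nuclei and at most 39.0 CPM in a library of another class. Ndnf had 79.3, 137 and 281 CPM against at most 53.7 CPM. Both genes were without overlap.

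Npy, the peptide co-released with GABA, had 280, 896 and 1334 CPM in PFC Lamp5 nuclei, whereas Sst nuclei had 135, 506 and 1066 CPM. The ranges overlapped, and Npy was 1.02 ± 0.14 (SE) higher on the log2 scale in Lamp5 than in Sst nuclei (edgeR, adjusted p = 2.46e-08). In the Hip it was not called, with a log2 difference of 0.24 ± 0.24 (SE) from Sst nuclei (edgeR, adjusted p = 0.658). Further members of the list that were higher in the PFC were Reln, Kit, Id2, Jam2, Ntn1 and Fam19a1. The calls of Reln and Kit were close to the threshold, and without GF mouse 5 or GF mouse 6 neither passed in edgeR (Reln adjusted p = 0.204 and 0.0955, Kit adjusted p = 0.0651 and 0.0764). Reln also lost its call without CGF mouse 17 or 19 (edgeR, adjusted p = 0.0657 and 0.152), and Kit without CGF mouse 17 or SPF mouse 30 (edgeR, adjusted p = 0.0546 and 0.104). The call of Id2 was lost without GF mouse 5, SPF mouse 30, SPF mouse 32 or any 1 CGF mouse (edgeR, adjusted p = 0.0588 to 0.114). Without the 3 deep GF libraries, 161 genes were called in the PFC, and 103 of 2216 with the rule applied after thinning. Fam19a1 spread widely, from 19.2 to 1126 CPM over the 9 libraries. The largest differences outside the list were those of Crispld1, Atp6ap1l, Cdh24, Myo3b, Scube1 and Pde11a, a phosphodiesterase of cyclic nucleotides that had 280, 543 and 806 CPM and at most 125 CPM in another class.

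**Figure D1:**
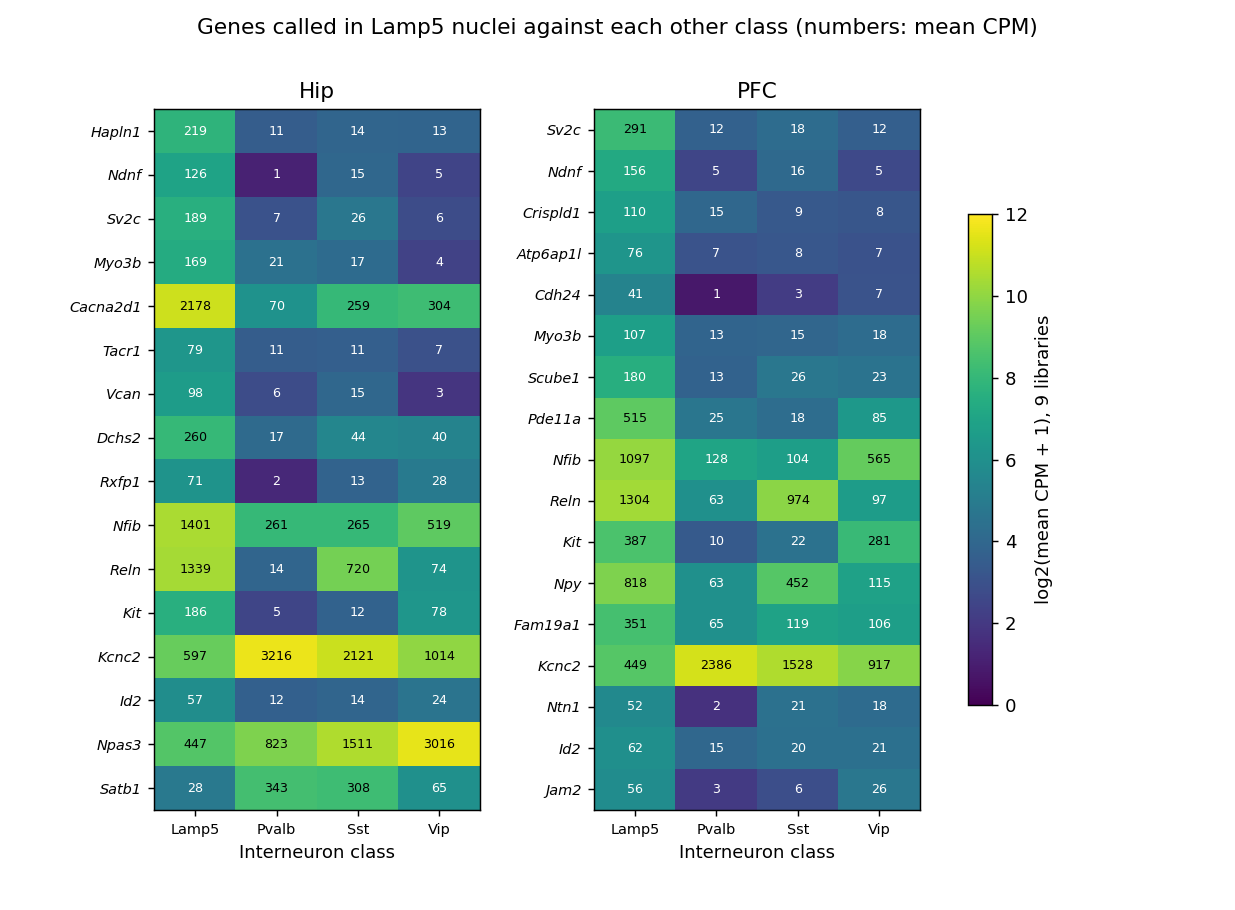
Mean level of the genes that differed between Lamp5 nuclei and each other interneuron class, in the Hip (left) and PFC (right). Colour gives log2(mean CPM + 1) over 9 libraries on a shared scale, and the number in each cell is the mean CPM. Ndnf, Sv2c and Myo3b are highest in the Lamp5 column of both panels, whereas Kcnc2 is lowest there.

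Among the lists of signalling genes, GABA receptors were called in 4 of 13 tested members in each region, where 4.23% of all genes were called in the Hip and 4.48% in the PFC. Of these subunits 3 were higher and 1 lower in Hip Lamp5 nuclei and 4 were higher in the PFC. Gabra5, the subunit of extrasynaptic receptors, was among them in both, with 42.6, 60.0 and 92 CPM in the Hip and 40.2, 57.4 and 198 CPM in the PFC. The others were Gabbr2, a GABA-B subunit, and Gabrb2 in both regions, Gabra4 in the PFC, and Gabra3, which was lower in the Hip. None of 7 genes of the nitric oxide pathway was called in either region. In Hip Lamp5 nuclei Nos1 had 68.4, 103 and 183 CPM, above the Pvalb and Sst medians of 10.4 and 16.5 CPM but overlapping with Vip nuclei, whose median was 82.0 CPM. Of the potassium and HCN channels, 1 of 29 was higher and 1 lower in the Hip, and 1 of 29 was lower in the PFC, and in both regions the lower channel was Kcnc2. Nrg2, a neuregulin, and Adra1a, an adrenergic receptor, were higher in both regions.

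The genes of embryonic origin gave a mixed picture. Adarb2 had 2739, 4476 and 8205 CPM in Hip Lamp5 nuclei, between Sst nuclei (median 748 CPM) and Vip nuclei (median 21500 CPM). In the PFC its values were 3313, 5400 and 7482 CPM, again without overlap with Vip nuclei. Nfib, a transcription factor on the list for the caudal eminence, was called higher in both regions, with medians of 1443 and 1136 CPM. Npas3, on the same list, went the other way in the Hip. It was called lower there, with a mean log2 difference of -1.85 from the 3 other classes (edgeR, largest adjusted p = 0.00499). Lhx6 had 28.6, 48.8 and 89.5 CPM in Hip Lamp5 nuclei, where the medians of Pvalb and Sst nuclei were 49.3 and 54.2 CPM. In PFC Lamp5 nuclei it had 0, 9.79 and 26.4 CPM, against medians of 75.2 and 90.0 CPM in PFC Pvalb and Sst nuclei.

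Markers of other cells were present in the members, here in CPM before TMM scaling. Summed over the list, 10 excitatory markers reached 614 to 1065 CPM in the Hip and 950 to 1517 CPM in the PFC. Oligodendrocyte markers summed to 34.3 to 260 CPM and 7 microglial markers to 8.58 to 83.9 CPM. Ttr, a transcript of the choroid plexus, was at 0 in every PFC library and reached 1597 CPM in the Hip library of GF mouse 6, where Sst nuclei had 2237 CPM. The part of these transcripts in the results was not tested.

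The share of nuclei that met the rule had its highest mean in GF mice of both regions, and in the PFC the GF libraries were also the deeper ones. In the Hip, 0.506% ± 0.027 of kept nuclei were members in GF mice, whereas SPF mice had 0.255% ± 0.131 and CGF mice 0.261% ± 0.071 (SD, n = 3 each; exact permutation test over 3 groups, two-sided, p = 0.0464, adjusted p = 0.0607). In the PFC the shares were 0.624% ± 0.157, 0.276% ± 0.090 and 0.318% ± 0.118 (exact permutation test, p = 0.0607). Neither region passed the adjusted test over all members, whereas with likely doublets left out both did (exact permutation test, adjusted p = 0.0357 in each). No pair of groups can reach a p below 0.1 with 3 mice against 3. The share of GABAergic nuclei gave 6.92%, 2.78% and 2.91% in the Hip (exact permutation test, p = 0.0321, adjusted p = 0.0643), and 5.74%, 4.79% and 5.13% in the PFC (exact permutation test, p = 0.525).

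When each nucleus was thinned to 2000 UMIs before the rule, few members remained, 0 to 6 in a Hip library and 1 to 15 in a PFC library. The PFC shares differed less, with GF mice at 0.132%, SPF mice at 0.130% and CGF mice at 0.137% (exact permutation test, p = 0.996). In the Hip the thinned shares were 0.0694%, 0.0359% and 0.0323% (exact permutation test, p = 0.357). Beside these shares, the median depth of Hip nuclei was 4678 to 5905 UMIs in GF mice and 5460 to 7579 UMIs in SPF and CGF mice, and the part of depth in the Hip shares was tested by this thinning only. Between regions, the difference in share, Hip minus PFC, was -0.0656 points over the 9 mice, lower in 5 of 9 mice (exact sign-flip permutation test, p = 0.125). After thinning the difference was -0.0873 points, lower in the Hip in 8 of 9 mice (exact sign-flip permutation test, p = 0.00781), with the same few members. As a background, 0 to 4.08% of the oligodendrocytes of a library held 2 or more Lamp5 UMIs, although their GABAergic counts would not pass the rule.

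**Figure D2:**
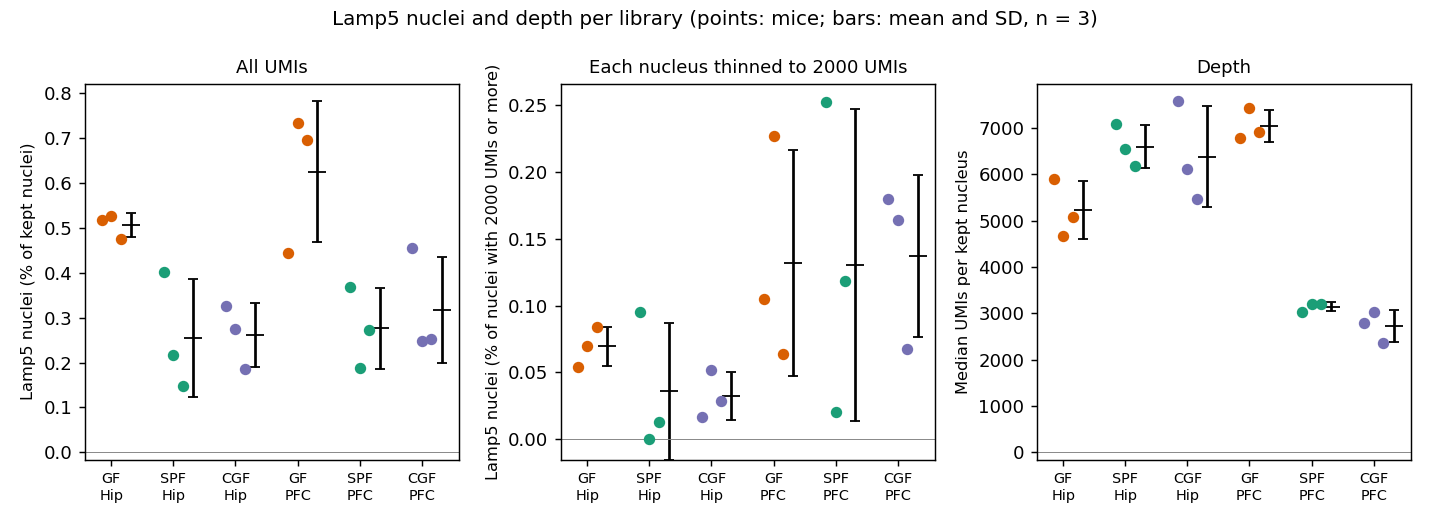
Share of Lamp5 nuclei per library over all UMIs (left) and after thinning to 2000 UMIs (middle), in percent, and the median UMIs per kept nucleus (right), by group and region. Points are mice and bars give the mean and SD of 3 mice. In the left panel the GF mean is the highest in each region, in the middle panel the 3 PFC means lie close together, and in the right panel the 3 GF libraries of the PFC stand above the other PFC libraries.

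Hip and PFC Lamp5 nuclei were compared under a rule that asked for a call in each group of mice. In simulated data this rule found 3% of genes changed by 1 on the log2 scale and 46% of those changed by 2. Many real differences can thus go uncalled, and the count does not measure how alike the regions are. Of 8020 genes tested, 74 differed in the same direction in each of GF, SPF and CGF mice with an adjusted p under 0.05 in every group (0.923%), 62 higher in the Hip and 12 higher in the PFC. The median log2 difference over all genes was 0.05. Receptors, axon guidance and adhesion genes and Lhx6 were among those higher in the Hip, and Npy led those higher in the PFC.

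Prlr, the prolactin receptor, was found in all 9 Hip libraries and in no PFC library. Its lowest, median and highest values in the Hip were 3.35, 67.3 and 122 CPM. Summed over mice there were 123 UMIs in the Hip and 0 in the PFC. With a floor of 3 counts over the PFC libraries of a group, the level in the Hip was at least 15.0-fold higher in GF mice, 3.76-fold higher in SPF mice and 10.6-fold higher in CGF mice. Such floors and the intervals below cover counting error only. Ttr, the choroid plexus transcript, had a like order in the members, with 2.93, 123 and 1688 CPM in the Hip and 0 in every PFC library. Whether transcripts from other cells had a part in the Prlr counts was not tested. Mctp2, a membrane protein with C2 domains, had 88.7, 192 and 471 CPM in the Hip against 0, 0 and 15.4 CPM in the PFC. In the GF mice this was 142 against 6 UMIs, a 28.7-fold ratio (95% exact interval 12.9 to 79.6). 

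Tacr1 had 10.1, 60.1 and 194 CPM in the Hip and 0, 0 and 3.86 CPM in the PFC. Fgf10, a growth factor, had 37.7, 71.5 and 111 CPM against 0, 0 and 11.6 CPM. Htr7, a serotonin receptor that raises cyclic AMP, had 51, 104 and 160 CPM against 0, 12.1 and 23.6 CPM. These 3 genes had no overlap between regions, so each was higher in the Hip of all 9 mice. Leading region genes were named only where the regions did not overlap, so this was set by the choice. Some of these calls were lost on leaving out 1 mouse. Tacr1 lost its call without GF mouse 5 or 6 (edgeR, adjusted p = 0.336 and 0.169), Prlr without SPF mouse 30 or 31 (edgeR, adjusted p = 0.0963 and 0.106), and Fgf10 without any 1 SPF mouse (edgeR, adjusted p = 0.0537 to 0.0818). Without any 1 mouse the log2 differences stayed at 5.808 to 6.218 for Tacr1, 6.377 to 6.886 for Prlr and 5.415 to 5.821 for Fgf10.

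Genes of cell contact made the largest listed group. Of 35 synaptic adhesion genes tested, 9 were higher in the Hip and none lower, with a median log2 difference of 0.44. Over all genes 0.923% were called, with a median of 0.05. Cntnap4, a neurexin-like protein of interneuron synapses, had 429, 908 and 1729 CPM in the Hip and 0, 56.0 and 135 CPM in the PFC, a log2 difference of 4.05 as a mean of the 3 groups (edgeR, largest adjusted p = 5.8e-08). Tenm3, a teneurin that guides hippocampal wiring, had 771, 1079 and 1968 CPM against 49.6, 108 and 337 CPM. The others were Tenm1, Tenm2, Epha5, Epha6, Lrrtm4, Unc5c and Unc5d. Col25a1, a membrane collagen, had 707, 1540 and 2196 CPM against 8.20, 49.6 and 359 CPM.

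Of 17 neurogliaform genes tested, 3 were higher in the Hip and 1 in the PFC, where 0.923% of all genes were called. Nos1, the enzyme that makes nitric oxide in neurons, had 70.1, 105 and 189 CPM in the Hip and 12.1, 23.2 and 54.0 CPM in the PFC, and was higher in the Hip of 9 of 9 mice without overlap. By group, GF mice had a log2 difference of 1.52 ± 0.33, SPF mice of 2.08 ± 0.57 and CGF mice of 2.92 ± 0.49 (SE; edgeR, largest adjusted p = 0.0119). The call was lost on leaving out mouse 6 or 7 of the GF group or mouse 30 of the SPF group (edgeR, adjusted p = 0.0519, 0.0969 and 0.0617). It was the 1 gene called among 7 of the nitric oxide pathway. Hapln1 and Eya4 were also higher in the Hip, with ranges that overlapped with the PFC. The call of Hapln1 was lost with DESeq2 and without GF mouse 5, GF mouse 7 or any 1 SPF mouse (adjusted p = 0.0505 to 0.173), and that of Eya4 without CGF mouse 18, GF mouse 5, SPF mouse 30 or SPF mouse 31 (edgeR, adjusted p = 0.0524 to 0.144).

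Lhx6, the transcription factor of the medial eminence, had 29.2, 50.0 and 92.5 CPM in the Hip and 0, 9.66 and 24.3 CPM in the PFC. The regions did not overlap, and the log2 difference was 2.88 as a mean of the 3 groups (edgeR, largest adjusted p = 0.019). The call was lost without CGF mouse 17, SPF mouse 30 or SPF mouse 32 (edgeR, adjusted p = 0.16, 0.12 and 0.123). The other 3 tested genes of that list, Maf, Satb1 and Sox6, and 7 of 8 genes of the caudal list did not pass. Maf had 263, 350 and 509 CPM in the Hip and 109, 173 and 262 CPM in the PFC. It was higher in the Hip of 9 of 9 mice without overlap, whereas Satb1 was higher there in 4 and Sox6 in 2, with overlap. Zeb2, on the caudal list, was higher in the Hip, with 864, 1338 and 1653 CPM against 486, 605 and 729 CPM, and it was not called without any 1 GF mouse (edgeR, adjusted p = 0.0944 to 0.188). Adarb2 differed by -0.10 on the log2 scale as a mean of the 3 groups (edgeR, largest adjusted p = 0.622).

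Npy showed the reverse order. It had 7.29, 29.0 and 189 CPM in the Hip and 276, 856 and 1225 CPM in the PFC, with no overlap, and was higher in the PFC of all 9 mice. GF mice had a log2 difference of -1.56 ± 0.28, SPF mice of -5.21 ± 0.41 and CGF mice of -5.88 ± 0.42 (SE; edgeR, largest adjusted p = 4.88e-04). Scube1, a secreted protein with EGF-like domains, had 16.6, 45.2 and 94.3 CPM in the Hip against 104, 158 and 271 CPM in the PFC, and lost its call without GF mouse 5, GF mouse 7 or SPF mouse 30 (edgeR, adjusted p = 0.0569 to 0.138). Fstl4 had 96.6, 175 and 223 CPM against 390, 467 and 861 CPM. Camk2n1, an inhibitor of the kinase CaMKII, had 8.41, 45.2 and 114 CPM against 135, 443 and 809 CPM, and its call was lost without any 1 of the 3 GF mice (edgeR, adjusted p = 0.168, 0.104 and 0.222). Etl4 and Tspan5 were also higher in the PFC, and were named by the same rule that asked for no overlap. The call of Etl4 was lost without CGF mouse 19 (edgeR, adjusted p = 0.078) and that of Tspan5 without any 1 CGF or SPF mouse (edgeR, adjusted p = 0.0625 to 0.233), and over all 18 alternatives they were lost in 6 and 12.

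Several genes that mark the class did not pass between regions in all 3 groups. Ndnf ranged from 84.1 to 184 CPM in the Hip and from 72.8 to 268 CPM in the PFC, and was higher in the Hip of 4 of 9 mice. Reln ranged from 893 to 2322 CPM against 716 to 2095 CPM, and Id2 from 27.7 to 93.7 CPM against 32.8 to 84.9 CPM. Kit was higher in the PFC in 8 of 9 mice, with medians of 367 and 201 CPM, and passed in CGF mice only (log2 difference -1.75, edgeR, adjusted p = 1.10e-04) while its difference was -0.65 in GF and -0.62 in SPF mice. Whether the groups differed in this was not tested.

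**Figure D3:**
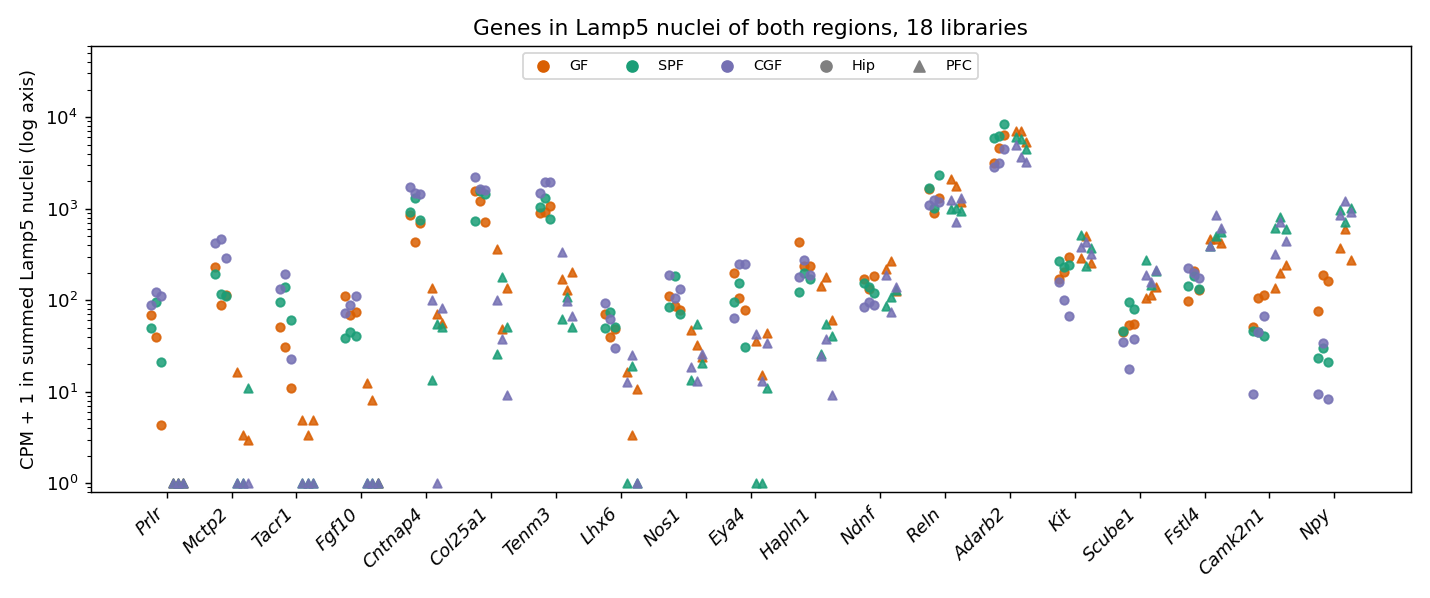
Level of 19 genes in the summed Lamp5 nuclei of 18 libraries, as CPM + 1 on a log axis. Circles are Hip and triangles PFC libraries, coloured by group. Prlr, Mctp2, Tacr1 and Fgf10 on the left are at or near 1 in most PFC libraries, Ndnf, Reln and Adarb2 overlap, and Npy on the right is higher in every PFC library.

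The share of members with a UMI of each of 10 subtype genes was compared between regions at matched depth. After thinning each member to 2000 UMIs, Npy was detected in 5.05% of Hip and 48.7% of PFC members as a mean over 9 mice, and it was lower in the Hip of every mouse (exact sign-flip permutation test, p = 0.00391, the smallest the test can give, adjusted p = 0.026). Oligodendrocytes at the same depth, which should lack the gene, gave 2.99% in the Hip. In the PFC they gave 71 of 440 (16.1%) in GF libraries and 0 of 51 in SPF and CGF libraries, which allows a share of up to 5.88%. Kit was detected in 25.8% of Hip and 47.3% of PFC members, and Adarb2 in 60.8% and 79.3% (exact sign-flip permutation tests, adjusted p = 0.026 and 0.0293). Without thinning Adarb2 had 77.5% and 82.0% and did not pass (exact sign-flip permutation test, adjusted p = 0.184). Kit had 42.4% and 61.8% without thinning and passed (exact sign-flip permutation test, adjusted p = 0.0195). Oligodendrocytes after thinning gave 4.59% and 2.65% for Kit and 21.3% and 15.5% for Adarb2. In the PFC, Kit was found in 8 of 440 (1.82%) in GF libraries and 5 of 51 (9.80%) in SPF and CGF libraries. Adarb2 was found in 65 of 440 (14.8%) and 11 of 51 (21.6%). Neither gene was called between regions in the sums. Nos1 had the other direction with 19.8% and 5.55%, higher in the Hip of 8 of 9 mice (exact sign-flip permutation test, adjusted p = 0.026), where oligodendrocytes gave 2.75% and 1.22%. Ndnf (17.5% and 19.9%), Reln (49.0% and 53.1%) and Id2 (14.3% and 14.9%) did not pass. Lhx6 was detected in 6.90% and 2.38% after thinning (exact sign-flip permutation test, p = 0.18) and in 29.1% and 4.14% without it, higher in the Hip of 9 of 9 mice (exact sign-flip permutation test, adjusted p = 0.013). After thinning to 1000 UMIs, Lhx6 had 6.51% and 0.513% and passed. It was then higher in the Hip of 7 mice and lower in 0 (exact sign-flip permutation test, adjusted p = 0.0391). Of the 10 genes, 4 passed with 9 mice, 2 without CGF mouse 18, and 0 without CGF mouse 17, CGF mouse 19, GF mouse 5, SPF mouse 31 or SPF mouse 32. With 1 mouse fewer the smallest p that the test can give is larger, which alone can undo a pass. Without any 1 mouse the differences, Hip minus PFC, spanned -46.96 to -42 points for Npy and 11.72 to 16.08 for Nos1. They spanned -24.93 to -18.76 points for Kit and -22.81 to -16.1 for Adarb2.

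Within the Hip, members with a Lhx6 UMI made up 69 of 245 nuclei and differed from the other members in the genes that name the class. Each library held 3 to 14 of them. They were somewhat deeper, with a median of 9854 UMIs against 8058.5 UMIs. Of 3594 genes tested between the sums of both kinds in the 9 libraries, 176 were called (4.9%), 86 higher and 90 lower in nuclei with a Lhx6 UMI.

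Kit, Ndnf, Adarb2 and Reln were all lower in Hip nuclei with a Lhx6 UMI. Kit had 0 to 76.2 CPM in nuclei with a Lhx6 UMI and 85.6 to 412 CPM in those without, and was lower in 9 of 9 libraries by 4.20 on the log2 scale (SE 0.39; edgeR, adjusted p = 2.75e-06). Ndnf had 0 to 52.1 CPM against 105 to 256 CPM, with no overlap. Adarb2 had 69.9 to 2871 CPM against 4551 to 11920 CPM, also with no overlap. Reln had 148 to 1273 CPM against 1158 to 2992 CPM and was lower in 9 of 9 libraries. Sv2c, Parm1, Npas3, Ntng1, Luzp2 and Igf1, a growth factor, were lower too.

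Tacr1 had 34.8 to 295 CPM in nuclei with a Lhx6 UMI and 0 to 114 CPM in those without, and was higher in 9 of 9 libraries (log2 difference 2.29, edgeR, adjusted p = 2.45e-04). Cntnap4 was higher in 9 of 9 libraries as well, with 851 to 3059 CPM against 30.2 to 1445 CPM. Esr1, the estrogen receptor alpha, was higher in 8 of 9 libraries, with 50.4 to 187 CPM against 0 to 107 CPM. Mctp2, Zbtb7c, Tll1, Myo5b and Sntb1 were the other leading genes. Some of these calls were lost on leaving out 1 mouse (edgeR, adjusted p = 0.0535 to 0.149). This held for Esr1 with GF mouse 5, GF mouse 6 or SPF mouse 30, for Tll1 with CGF mouse 17, CGF mouse 18 or SPF mouse 30, for Myo5b with CGF mouse 17, GF mouse 5 or SPF mouse 31, for Zbtb7c with SPF mouse 30 and for Sntb1 with SPF mouse 31. Nos1 was higher in 7 of 9 libraries by 0.61 on the log2 scale and did not pass (edgeR, adjusted p = 0.18). Of 28 synaptic adhesion genes tested, 9 were higher and 6 lower, where 4.9% of all genes were called.

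The region comparison was repeated without these nuclei. When the Hip members with a Lhx6 UMI were left out of the region comparison along with those of the PFC, a choice made after seeing the data, 32 of 6297 genes were called, 27 higher in the Hip. Nos1 passed there with a log2 difference of 1.85 (edgeR, largest adjusted p = 0.0317), as did Cntnap4, Tenm3, Col25a1, Htr7 and Npy, whereas Prlr had 4.36 and Mctp2 5.67 and did not pass (edgeR, largest adjusted p = 1 and 0.0781). A cell that carries Lhx6 can lack a Lhx6 UMI, so the repeat does not remove all such cells. Of 60 genes higher in the Hip that the Lhx6 split also tested, 37 were higher in nuclei with a Lhx6 UMI and 1 lower. Cntnap4, Tenm3, Col25a1 and Htr7 were among the 37. Over all 3594 genes of the split, 86 were higher and 90 lower. Both comparisons use the same Hip nuclei.

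**Figure D4:**
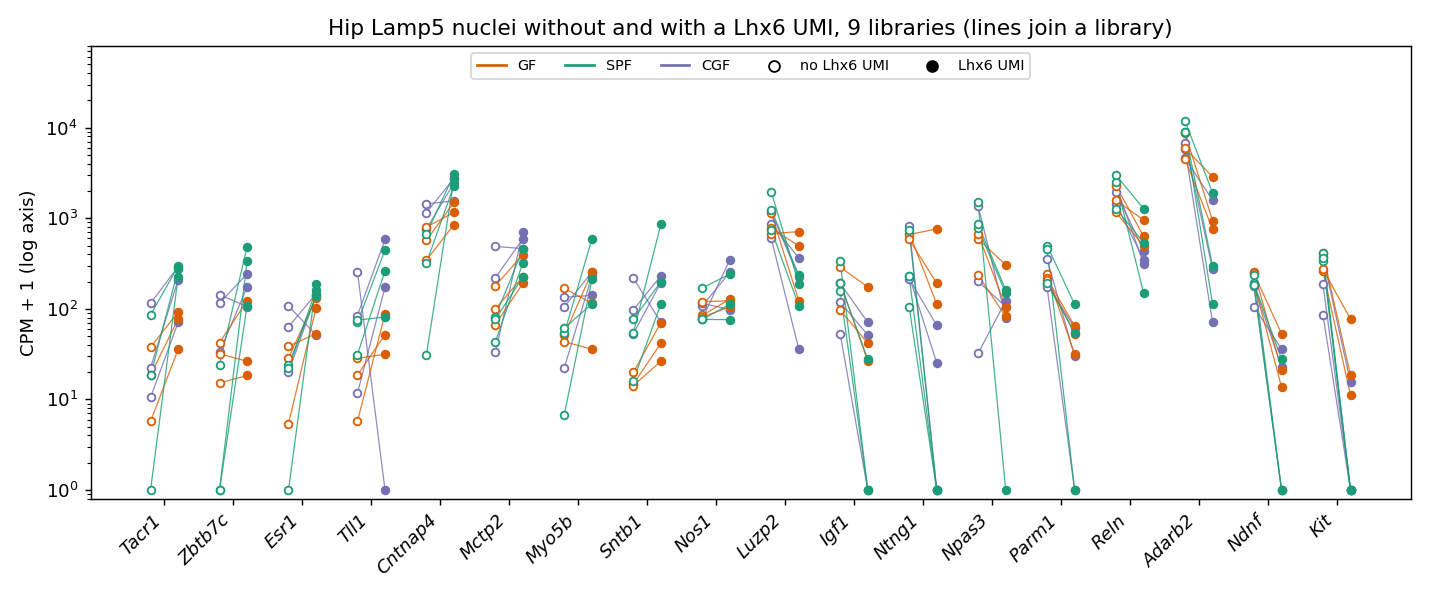
Level of 18 genes in Hip Lamp5 nuclei without (open) and with (filled) a Lhx6 UMI in each of 9 libraries, as CPM + 1 on a log axis. Lines join the 2 sums of a library and colour gives the group. Lines rise for Tacr1 and Cntnap4 in all libraries and fall for Kit, Ndnf, Adarb2 and Reln in all libraries.

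Single nuclei gave the same pairs of genes as a description. In the Hip, 10.1% of nuclei with a Lhx6 UMI held a Kit UMI against 56.8% of those without, and 65.2% held a Nos1 UMI against 38.6%. Nuclei with a Ndnf UMI held Kit in 82.4% and Reln in 91.9%, whereas those without held them in 26.9% and 49.7%. In the PFC 12 of 278 members, from 6 libraries, held a Lhx6 UMI, and 4, 1 and 3 of them came from GF mice 5, 6 and 7, the deeper libraries. Their median depth was 8866.5 UMIs against 5758 UMIs in the other PFC members, and the shares below are pooled over libraries without thinning. Sox6, a partner of Lhx6 in cells of the medial eminence, was found in 83.3% of these and in 12.4% of the other PFC members, and Kit in 16.7% and 65.0%.

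The sums of those 12 PFC nuclei were compared with the other members of their 6 libraries. Of 1458 genes tested, 38 were called (2.61%), 17 higher and 21 lower. Sox6 had 467 to 1302 CPM in nuclei with a Lhx6 UMI and 0 to 186 CPM in those without (edgeR, adjusted p = 7.13e-09). Npy had 0 to 186 CPM against 447 to 2344 CPM (log2 difference -3.01, edgeR, adjusted p = 4.96e-04). Slit2, Kctd8 and Kcnc2 were higher with Sox6, and Adarb2, Kit, Ryr3 and Reln were lower with Npy. Single libraries went the other way, as Kctd8 had 0 against 146 CPM in SPF mouse 31 and Reln 5303 against 1581 CPM in GF mouse 7. Reln lost its call without CGF mouse 17, CGF mouse 18, GF mouse 6 or SPF mouse 31 (edgeR, adjusted p = 0.11 to 0.277). With 1 to 4 such nuclei in a library these sums rest on few cells, and leaving out GF mouse 6 gave 17 calls, SPF mouse 31 gave 18 and GF mouse 5 gave 63.

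In the Hip, Lamp5 nuclei of GF mice differed from those of both other groups, and the neuropeptide genes Npy and Cck were among the genes that were higher. Against SPF mice, 153 of 8196 genes were called (1.87%), 121 higher and 32 lower in GF mice. Against CGF mice, 445 were called (5.43%), 253 higher and 192 lower. Between CGF and SPF mice only Mid1 was called (0.0122%), while 586 genes had an unadjusted p under 0.05 and DESeq2 called 8. For GF against SPF and CGF mice DESeq2 called 49 and 169 genes, all of them among those called by edgeR, and members without a Lhx6 UMI gave 34 and 89 of 5029 genes in edgeR. Leaving out ribosomal, mitochondrial, rRNA-linked, antisense and Ttr counts, a choice made after seeing the data, gave 149 and 457 calls for the first 2 comparisons, 143 and 426 of them shared. GF libraries enter both of the first comparisons, so these are not independent. The counts rested on single libraries, as GF against SPF gave 11 calls without SPF mouse 30, 82 without SPF mouse 31, 43 without GF mouse 6 and 38 without GF mouse 7, and GF against CGF gave 139 without CGF mouse 17, 209 without CGF mouse 18, 172 without GF mouse 6 and 158 without GF mouse 7. CGF against SPF gave 22 calls without SPF mouse 31, 9 without GF mouse 5, 7 without CGF mouse 17, 3 without CGF mouse 19 and 2 without CGF mouse 18 or GF mouse 7.

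Npy had 71.1, 176 and 149 CPM in the Hip of GF mice 5, 6 and 7, 21.1, 27.1 and 18.7 CPM in SPF mice 30, 31 and 32, and 7.80, 30.9 and 6.81 CPM in CGF mice 17, 18 and 19. All GF mice were above all others. The log2 difference was 2.53 from SPF mice (edgeR, adjusted p = 0.00435) and 3.08 ± 0.46 (SE) from CGF mice (edgeR, adjusted p = 4.26e-04). After thinning to 2000 UMIs, the share of members with a Npy UMI did not pass over the 3 groups (exact permutation test, p = 0.0357, adjusted p = 0.179). It was 13.8% in GF and 1.39% in CGF mice as a mean over mice, beside 3.98% and 2% in oligodendrocytes. In SPF mice 0 of 55 members held one at that depth, which allows a share of nuclei with a UMI of up to 5.45% by counting error alone, and oligodendrocytes gave 3.2%. Without thinning, 6 of 28, 4 of 16 and 1 of 12 SPF members held one. GF mice were the highest in Hip Sst nuclei as well, with 87.8, 122 and 60.8 CPM in GF, 40.1, 13.4 and 25.6 CPM in SPF and 26, 18.5 and 25.3 CPM in CGF mice, before TMM scaling.

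Cck, the peptide cholecystokinin, had 224, 239 and 292 CPM in GF, 73.9, 94.7 and 150 CPM in SPF and 42.9, 61.8 and 88.6 CPM in CGF mice. It was higher in GF mice by 1.35 than in SPF mice and by 2.03 than in CGF mice on the log2 scale (edgeR, adjusted p = 0.0102 and 2.80e-04). The other classes had a like difference before TMM scaling. In Hip Vip nuclei Cck had 418 to 657 CPM in GF mice against 94.8 to 183 CPM in the others, in Pvalb nuclei 136 to 221 against 20.4 to 73.8 CPM, and in Sst nuclei 199 to 217 against 52.9 to 159 CPM. The excitatory marker Nrgn moved with it in the members, with 308 to 400 CPM in GF against 68.2 to 183 CPM in the other Hip libraries before TMM scaling, and the part of such transcripts was not tested. Of the 3 neuropeptide genes tested, 2 were higher in GF than in SPF mice and 3 than in CGF mice, the last being Pnoc. Over all genes 1.87% and 5.43% were called.

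A minority of the nuclear transcripts of the respiratory chain and the ribosome passed the test in the Hip, each of them higher in GF mice. These lists were drawn up after values had been seen. Over all genes, 1.87% were called against SPF and 5.43% against CGF mice in either direction, with median log2 differences of 0.023 and 0.015. Of 59 nuclear genes of oxidative phosphorylation, 6 were higher than in SPF and 14 than in CGF mice, with medians of 0.94 and 0.97 on the log2 scale. Of 29 cytosolic ribosomal proteins, 6 and 5 were higher, with medians of 1.40 and 1.21. Rps15 encodes a protein of the small subunit. It had 35.5, 46.6 and 40.4 CPM in GF mice and 0 in all SPF mice, at least 7.54-fold higher with a floor of 3 counts over the SPF libraries, and its call was lost without SPF mouse 30 (edgeR, adjusted p = 0.0838). Of 11 mitochondrially encoded genes, 8 were higher in GF than in CGF mice. Of these mt-Co3 had 850, 1585 and 1699 CPM in GF mice, 482, 122 and 1554 CPM in SPF mice and 109, 170 and 130 CPM in CGF mice, so that SPF mice spanned both other groups.

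Mid1, a microtubule-associated ubiquitin ligase, divided SPF mice from the rest. It had 276, 206 and 137 CPM in GF, 17.6, 27.1 and 46.8 CPM in SPF and 324, 515 and 634 CPM in CGF mice of the Hip. The log2 difference of CGF from SPF mice was 4.16 ± 0.39 (SE; edgeR, adjusted p = 1.21e-06). In the PFC it had 199, 222 and 235 CPM in GF, 86.7, 21.8 and 45.2 CPM in SPF and 155, 311 and 234 CPM in CGF mice. SPF mice were the lowest in both regions, which come from the same mice.

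Genes lower in GF mice of the Hip included Upp2, Sntb1, Tll1 and Vwc2l against SPF mice, and Tll1, Sntb1, Hs3st4, Thsd4 and Htr2c against CGF mice. Upp2, a uridine phosphorylase, had 82.0, 65.8 and 80.9 CPM in GF, 271, 372 and 496 CPM in SPF and 246, 268 and 245 CPM in CGF mice. It was lower by 2.26 on the log2 scale than in SPF mice (edgeR, adjusted p = 1.88e-05). Tll1, a protease of the matrix, had 24.6, 21.9 and 18.7 CPM in GF mice and 67.6 to 288 CPM in the others, and its call against SPF mice was lost without SPF mouse 30 (edgeR, adjusted p = 0.211). Vwc2l was not called against SPF mice without GF mouse 5, GF mouse 6 or SPF mouse 30 (edgeR, adjusted p up to 0.353), nor Hs3st4 against CGF mice without CGF mouse 17 (edgeR, adjusted p = 0.0824). With the stricter rule the difference of Htr2c from CGF mice was -0.18 and that of Hs3st4 -0.98 on the log2 scale, and with sums thinned to the smallest library that of Thsd4 was -1.47 (edgeR, adjusted p = 0.946, 0.505 and 0.266). Tll1 and Sntb1 did not pass with the stricter rule either (edgeR, adjusted p = 0.0715 and 0.162). Of 35 synaptic adhesion genes, 10 were lower in GF than in CGF mice and none was called against SPF mice, where 5.43% and 1.87% of all genes were called. By number, Hip nuclei with a Lhx6 UMI did not pass over the 3 groups (exact permutation test, p = 0.539). Lhx6 ranged from 35.7 to 65.6 CPM over the GF mice, 45.8 to 67.6 over the SPF mice and 27.3 to 85.8 over the CGF mice. Of the summed UMIs they held 169454 of 278549, 102495 of 216531 and 33347 of 158798 in CGF mice 17, 18 and 19. GF mice 5, 6 and 7 had 116556 of 375754, 94705 of 357471 and 70204 of 317440. Without these nuclei, 15 of 5029 genes were lower than in CGF mice, in place of 192 of 8196. Whether this mix or the fewer nuclei lowered the count was not tested.

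In the PFC, differences between GF mice and the others cannot be told apart from those between libraries, because the GF libraries were the deeper ones. Against SPF mice, 813 of 5081 genes were called (16%), 406 higher and 407 lower in GF mice, and against CGF mice 936 (18.4%), 470 higher and 466 lower. Between CGF and SPF mice 1 gene was called (0.0197%), and 278 had an unadjusted p under 0.05, with 1 call by DESeq2. DESeq2 called 564 and 602 genes for GF against SPF and CGF mice. The counts were 537 for GF against SPF without SPF mouse 30 and 604 for GF against CGF without CGF mouse 17. The 6 transcripts linked to ribosomal RNA were all lower in GF than in SPF mice, led by Gm42418, which overlaps a ribosomal RNA repeat. It had 199, 137 and 207 CPM in GF mice and 12230 to 21550 CPM in SPF and CGF mice. Gm42418 was lower in GF than in SPF mice of the Hip as well, by 1.87 on the log2 scale (edgeR, adjusted p = 0.00172). Cmss1, another of the 6, had a log2 difference of -0.98 there and did not pass (edgeR, adjusted p = 0.0589). All 12 mitochondrially encoded genes tested were lower in GF mice, and 7 of 11 antisense genes were higher. Sorbs2os, one of these, had 173, 252 and 276 CPM in GF mice and 0 in SPF mice, at least 15.1-fold higher with a floor of 3 counts over the SPF libraries. The antisense and sense genes cannot be told apart where the counting did not use strand, which the sources used here do not give.

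Npy in the PFC went against its order in the Hip. It had 429, 693 and 305 CPM in GF, 1127, 870 and 1152 CPM in SPF and 978, 1429 and 1058 CPM in CGF mice, so that all GF mice were below all others. The log2 difference was -1.16 from SPF mice and -1.27 from CGF mice (edgeR, adjusted p = 0.00253 and 7.03e-04). PFC Sst nuclei had 122 to 151 CPM in GF mice against 325 to 1083 CPM in the others, before TMM scaling. Cck in the PFC was again the highest in GF mice, with CGF mice above SPF mice, and had 403, 252 and 395 CPM in GF, 86.7, 109 and 56.5 CPM in SPF and 128, 142 and 150 CPM in CGF mice.

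Other genes of the lists were called in the PFC in numbers near or above the background of 16%. Of 33 synaptic adhesion genes, 11 were higher and 2 lower in GF than in SPF mice, among them Unc5c and Robo2. Of 16 ionotropic glutamate receptor genes, 5 were higher and 1 lower, and of 13 GABA receptor genes, 2 were higher, Gabrb2 among them. Hapln1 had 164, 203 and 66.2 CPM in GF against 9.36 to 65.3 CPM in the other mice. Sim2, a transcription factor, was at 0 in all GF and SPF libraries of the PFC and had 94.5, 142 and 281 CPM in CGF mice. With 54 UMIs in CGF mice, it was at least 11.1-fold higher than in SPF mice with a floor of 3 counts over the SPF libraries, and it was the gene called between CGF and SPF mice. Without CGF mouse 18 or 19 or any 1 SPF mouse it was not called (edgeR, adjusted p = 0.0614 to 0.467), and without GF mouse 7 there were 3 calls. P2ry14, Pla2g3, Traf3ip2, Igf2bp3 and Nrg3os were higher in GF mice, and Il31ra, Cmss1, Robo3 and mt-Nd6 were lower, the last without a call when SPF mouse 32 was left out (edgeR, adjusted p = 0.0697).

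The difference between GF and SPF mice was itself compared between regions. Of 8020 genes, 437 differed between the Hip and the PFC (5.45%), 184 with a larger and 253 with a smaller value in the Hip. Leaving out GF mouse 6 gave 242 genes, SPF mouse 30 gave 146 and SPF mouse 31 gave 255. Npy was among them, with a log2 difference between the regional effects of 3.65 (edgeR, adjusted p = 3.34e-05).

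**Figure D5:**
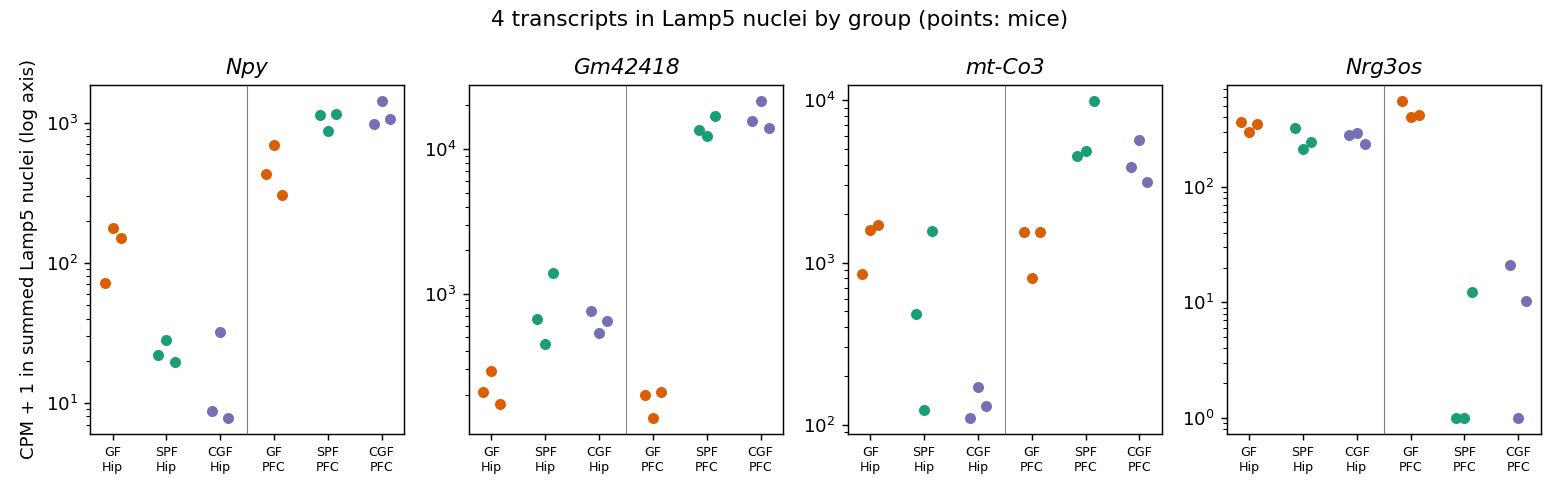
Level of Npy, Gm42418, mt-Co3 and Nrg3os in the summed Lamp5 nuclei by group and region, as CPM + 1 on a log axis, with 1 point a mouse. Npy is highest in GF mice in the Hip and lowest in GF mice in the PFC. Gm42418 is near 200 CPM or lower in the GF libraries of the PFC and at 12230 CPM or more in the SPF and CGF libraries there.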

How the data were processed

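Nuclei from the Hip and PFC of 9 mice gave 18 droplet libraries. The deposited files hold raw UMI counts per gene and barcode, which the authors made with Cell Ranger 3.1.0 per the file headers, on mm10, with base calling by CASAVA 1.8 in the submitters' processing notes. The design text names other kit and software versions than the labels. Whether counting used strand is not given in the sources used here. Library totals were 20336250 to 71463928 UMIs.

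Nuclei with at least 200 genes and at most 10% mitochondrial UMIs were kept, and 138000 of 139924 barcodes passed. The members and the gene lists were chosen with earlier results of these data known, and the 4 lists of ribosomal, respiratory, mitochondrial and antisense genes were added later still. UMIs of members were summed per library. Sums were tested with the quasi-likelihood test of edgeR 4.0.16 in R 4.3.3 (filterByExpr with a minimum count of 5 and a total of 15, TMM scaling, Benjamini-Hochberg adjustment over all genes). CPM refer to the TMM-scaled totals of each fit, so that values of 1 gene differ slightly between fits. A gene was called in the class and region comparisons only if each of the 3 contrasts passed in 1 direction. Genes named were those with the largest called differences, plus called members of the lists. In the class comparison the smallest of the 3 differences set the rank. Between regions and in comparisons with GF mice, the largest were taken only from genes whose groups did not overlap. Some genes with larger differences, such as Pde3a between regions, were thus passed over. A floor on expression was used in the comparisons with GF mice only. Predicted genes other than Gm42418 were skipped. Some genes that this rule names are not reported here. For shares, mice were permuted exactly between groups (two-sided). DESeq2 1.42.0, stricter and thinned rules, no filter and leaving out each mouse were alternatives. Labels give no culture or litter, so p-values measure the spread between these mice. The class and Lhx6 comparisons took the library as a block, so their p-values measure the spread of the differences within libraries.

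The title numbers tie both regions to the same animal. The correlation of the deviations of the 2 regions of a mouse was 0.001 to 0.039, and the mouse was also fitted as a replicate block. The test was checked on simulated data, in which 46% of genes changed by 2 on the log2 scale were found in the region comparison of 7410 genes, 72% in GF against SPF in the Hip (7599 genes) and 85% in the PFC (4760 genes). Of genes changed by 1 on the log2 scale, 3%, 29% and 27% were found. False calls numbered 0, 0 and 10. In the Lhx6 split of the PFC, 14% of genes changed by 1 and 76% of those changed by 2 were found, with 2 false calls. The simulated libraries shared 1 gene profile, with a spread set by the level of a gene only. Apart from the changed genes they held no differences in profile between libraries, so the PFC figures do not cover those seen there.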

Additional observations from a re-analysis of the deposited data

Results flagged for a closer look

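For 15 of the genes named in the group comparisons, the difference between GF and SPF mice was itself different in the Hip and the PFC by the interaction test of edgeR (adjusted p under 0.05). The values are the log2 effect in the Hip minus that in the PFC.

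Npy differed by 3.655, being higher in GF mice in the Hip and lower in the PFC. Rps15 differed by 7.877, with 0 counts in SPF mice of the Hip, so that this fitted value is no bound. Among mitochondrially encoded genes, mt-Co2 differed by 2.755, mt-Co3 by 3.29, mt-Cytb by 2.45 and mt-Nd1 by 3.589. Cmss1 differed by 3.687 and Gm42418 by 4.384, both of them linked to ribosomal RNA.

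Antisense genes had the other sign, with -7.659 for Sorbs2os, -6.025 for Nrg3os and -6.148 for Ube4bos1. P2ry14 had -6.823, Pla2g3 -6.596, Traf3ip2 -6.901 and Igf2bp3 -3.603. For Sorbs2os, P2ry14, Pla2g3, Traf3ip2 and Ube4bos1 all SPF libraries of the PFC were at 0 counts, so that the fitted values are no bounds. The GF libraries of the PFC were the deeper ones, and group and library cannot be told apart there.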

How the results depend on the processing

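With the mouse as a replicate block, 83 genes differed between regions in place of 74 and 408 in the interaction in place of 437, no named region gene lost its call, and the 74 were all among the 83. The stricter rule (at least 3 UMIs) gave 131 and 209 calls for identity in the Hip and PFC, 24 between regions, 47 in the interaction, 11 and 19 for GF against SPF and CGF in the Hip, 233 and 349 in the PFC, 0 for CGF against SPF in the PFC, and 99 and 0 for the Lhx6 split in the Hip and PFC. The rule after thinning to 2000 UMIs gave, in the same order, 8 and 103, 4, 0, 1 and 5, 113 and 112, and 0, with 0 for the split in the Hip; the split in the PFC was not run, as no group of such nuclei remained. Sums thinned to the smallest library gave 92 and 128, 32, 73, 36 and 121, 297 and 272, then 3 for CGF against SPF in the Hip, and 102 and 6 for the split. These settings test fewer genes or nuclei.

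DESeq2 called 49 and 169 genes for GF against SPF and CGF in the Hip, 8 for CGF against SPF there, 602 for GF against CGF in the PFC and 63 in the PFC split. Without the filter the counts were 275 for GF against SPF and 57 for CGF against SPF in the Hip, 4 for CGF against SPF in the PFC, and 290 and 117 for the split. Leaving out likely doublets gave 2 and 0 for CGF against SPF in the Hip and PFC and 19 for the PFC split. Settings chosen after seeing the data gave 161 for identity in the PFC without GF libraries. Members without a Lhx6 UMI gave 32 between regions, 289 in the interaction, 34 and 89 for GF against SPF and CGF in the Hip and 2 for CGF against SPF in the PFC, and with thinned sums 19 and 85. Leaving out ribosomal, mitochondrial, antisense and Ttr counts gave 5 for CGF against SPF in the Hip. The cause of the changes in DESeq2 and without the filter was not tested.

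Leaving out 1 mouse gave 146 to 441 calls in the interaction, 11 to 172 for GF against SPF and 139 to 510 for GF against CGF in the Hip, 1 to 22 for CGF against SPF there, 537 to 892 and 604 to 1078 in the PFC, 0 to 3 for CGF against SPF there, 17 to 63 in the PFC split and 0 to 5 of the detection tests. Differences in share changed sign, as CGF minus SPF in the Hip was -0.003645 points at 2000 UMIs and -0.01257 without likely doublets, with -0.04722 to 0.07947 on leaving out 1 mouse. In the PFC at 1000 UMIs GF minus SPF was -0.01957, GF minus CGF -0.009898 (-0.005266 at 2000 UMIs) and CGF minus SPF -0.009672, the last being -0.0265 to 0.08734 on leaving out 1 mouse. Hip minus PFC passed only at 2000 UMIs (-0.08727). Detection without thinning reversed for Ndnf (0.9091 points), Reln (0.2519) and Id2 (15.02), and at 1000 UMIs for Nr2f2 (-0.03374). On leaving out 1 mouse the differences spanned -2.525 to 2.019 points for Id2, -4.345 to 0.1865 for Ndnf and -0.419 to 1.937 for Nr2f2. None of these detection differences passed a test.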
